A study of Mus musculus with 24 samples.

Results

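Scavenger receptors are described here by 8 genes, Olr1, Msr1, Marco, Scarb1, Scarf1, Cd68, Cd163 and Stab1, out of 54532 in the deposited table. They were chosen by gene symbol and followed over 8 groups of 3 libraries. Of the 8 genes, 7 had enough reads to be tested and Cd163 did not. The libraries hold polyadenylated RNA of macrophages cultured from mouse bone marrow. By the protocols in the labels, marrow of the tibia came from C57BL/6 mice of 2 to 3 months, was expanded with WEHI-3 medium as a source of interleukin-3 and with CSF-1, and was kept without serum for about 16 h. The 4 genotypes were Smad2fl/fl (Smad2fl), Smad2fl/fl + LyzMCre (MyS2KO), Smad3fl/fl (Smad3fl) and Smad3fl/fl + LyzMCre (MyS3KO), each left untreated or given TGF-β1 at 10 ng/ml for 4 h. LyzM-Cre drives recombination in myeloid cells from the lysozyme locus (Lyz2), and only the knockout groups carry it. Separate mice are not stated for the 3 libraries of a group, and the protocol speaks of 8 cDNA libraries for the 24 samples. The p-values therefore measure only the spread between these libraries, which may be technical.

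Scavenger receptors bind modified lipoproteins, microbes, dying cells and other polyanionic ligands and carry them into endosomes and lysosomes. They are grouped by function and not by common descent, so the classes differ in structure: collagenous trimers (Msr1, Marco), a lectin fold (Olr1), the CD36 fold (Scarb1), EGF repeats (Scarf1), a lysosomal mucin-like glycoprotein (Cd68), cysteine-rich scavenger domains (Cd163) and fasciclin domains with EGF repeats (Stab1). TGF-β binds a receptor kinase pair that phosphorylates SMAD2 and SMAD3. These enter the nucleus with SMAD4, and SMAD3 can bind the short DNA element called the SMAD box.

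The promoters of the only members called higher after TGF-β1, Olr1 and Stab1, are shown first. Each runs from 250 bases before to 50 after the annotated start, 5′ to 3′ on the gene's strand (RefSeq sequences, build GRCm38.p6). Olr1 lies at chr6:129507116-129507415 and Stab1 at chr14:31168592-31168891, both on the minus strand. Capitals mark the SMAD box (CAGAC, or its reverse complement GTCTG) and the AP-1 element (TGANTCA), the site of the FOS and JUN factors.
Olr1: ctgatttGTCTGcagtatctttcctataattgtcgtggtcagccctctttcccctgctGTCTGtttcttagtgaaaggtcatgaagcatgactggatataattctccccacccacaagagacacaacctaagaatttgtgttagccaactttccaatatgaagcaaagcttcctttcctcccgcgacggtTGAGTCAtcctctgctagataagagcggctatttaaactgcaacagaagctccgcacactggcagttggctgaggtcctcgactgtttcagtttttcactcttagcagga
Stab1: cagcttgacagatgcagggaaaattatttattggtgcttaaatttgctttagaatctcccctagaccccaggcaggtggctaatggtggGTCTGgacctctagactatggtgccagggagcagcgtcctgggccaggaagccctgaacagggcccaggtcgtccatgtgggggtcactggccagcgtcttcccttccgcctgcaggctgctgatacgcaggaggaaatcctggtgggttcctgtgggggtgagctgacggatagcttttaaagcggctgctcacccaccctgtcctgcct
The Olr1 window held 2 SMAD boxes, beginning at -243 and -192 from the start, and 1 AP-1 element at -60. The Stab1 window held 1 SMAD box at -161 and no AP-1 element. Promoter sequences were found for 5 of the 8 genes. In the other windows, Marco and Cd68 held 1 SMAD box each and Cd163 none, and Cd68 held 2 AP-1 elements, 1 of which overlaps its SMAD box. Of 32817 promoter windows of this length, searched on both strands, 49.6% held at least 1 SMAD box, 16.2% at least 2 and 7.81% at least 1 AP-1 element. A SMAD box was present in about as many windows as not. Whether a SMAD box or AP-1 element plays a part in the response of these genes was not tested. The longer SMAD palindrome GTCTAGAC was in none of the 5 windows and in 0.213% of all. The core of the macrophage factor PU.1, GAGGAA, was in all of these windows but that of Cd163 (2 matches in Cd68) and in 28.3% of all. These matches are letters and not measured sites.

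Libraries held 16.9 to 24.9 M counted reads (M, 1e6). Levels below are in CPM, reads per M of a library's total after TMM scaling, given for libraries 1 to 3 or as mean ± SD (n = 3). In such bulk RNA, fewer cells of a type and less RNA per cell cannot be told apart. All 8 macrophage markers listed, among them Adgre1 and Csf1r, were above 1 CPM in every group, and their summed level ran from 14500 to 29700 CPM over the libraries. Mast cell, stromal and erythroid lists summed to 2.51 CPM at most and lymphocyte markers to 4.08. Dendritic cell markers summed to 14.1 to 39.7 CPM, with 1 of 6 at 1 CPM or more in every group and Cd209a at 0 in every library, and osteoclast markers to 16.8 to 49.9, with 2 or 3 of 6. Smad3 averaged 424 CPM in untreated Smad3fl and 184 in untreated MyS3KO, against 41.4 in untreated Smad2fl. Smad2 averaged 42.2 CPM in untreated Smad2fl and 40.4 in the libraries labelled MyS2KO. Smad2 RNA over the whole gene was therefore not lower there, and the floxed exon is not given in the sources used here, so these counts do not check that knockout. The Smad3fl libraries stood apart from the others on the main axis of variation (32.7% of the variance), at 63.8 and 68.7 for untreated libraries 1 and 2 and 66.5 to 83.1 for treated ones. Untreated Smad3fl library 3, at 6.93, lay among the MyS3KO libraries (-7.53 to 18.9).

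**Figure D1:**
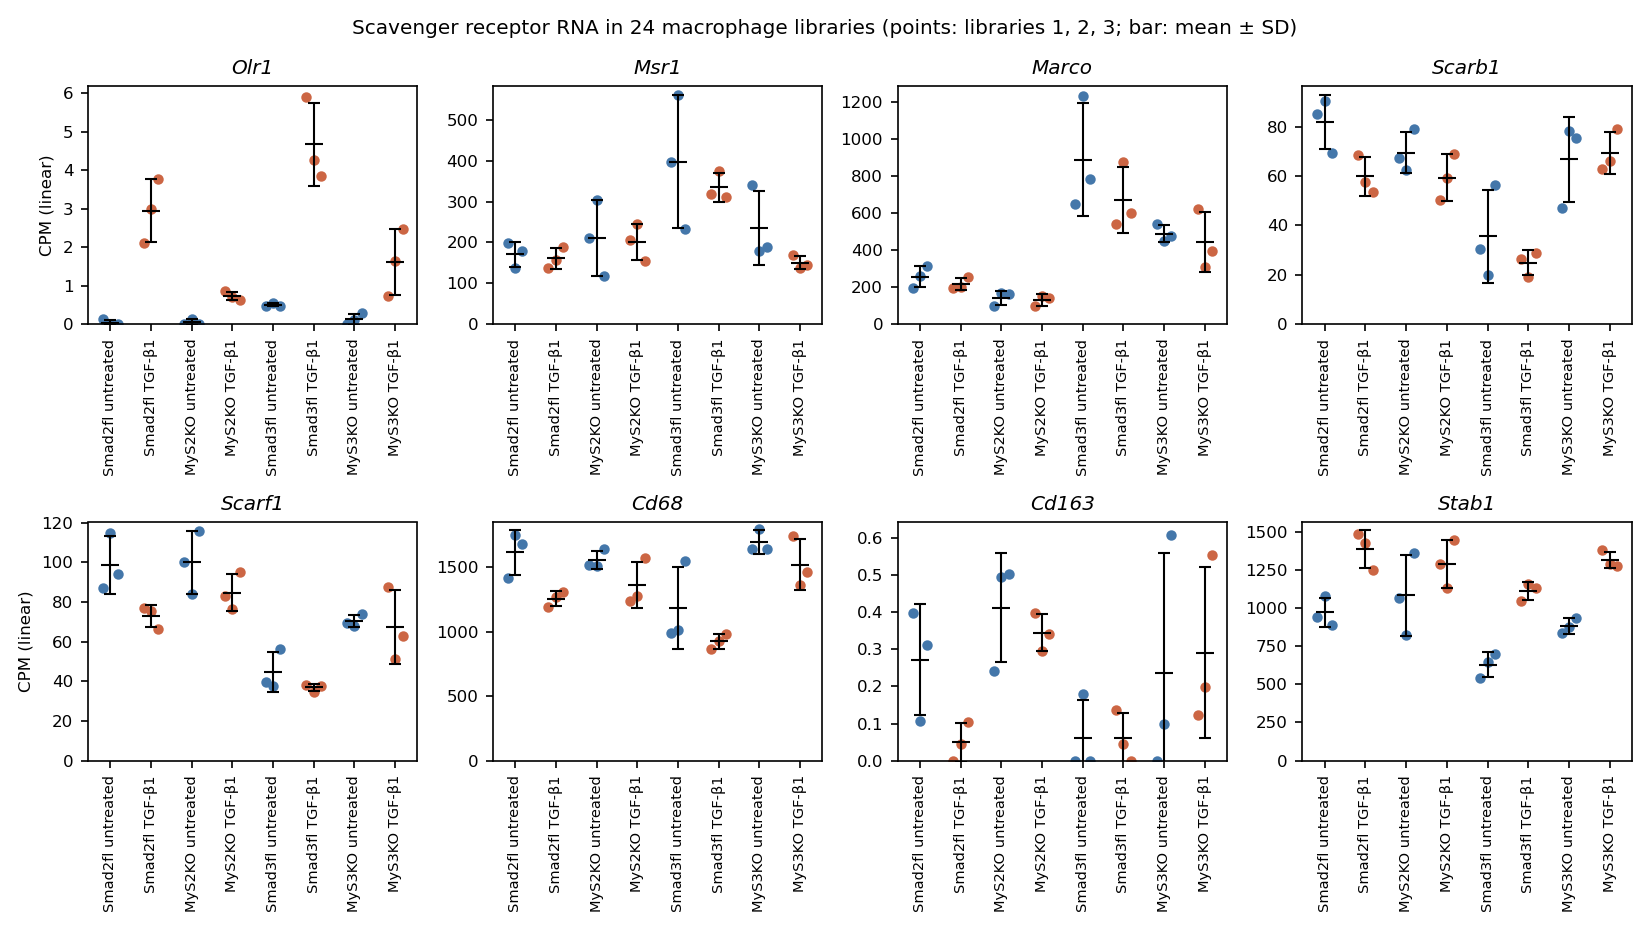
CPM (linear axis from 0, a scale per panel) of the 8 genes in each of the 24 libraries, blue untreated and orange with TGF-β1. Black bars are mean ± SD of 3 libraries, with lower ends below 0 left undrawn. Olr1 lies at 0.54 CPM at most in the untreated libraries and at 0.636 at least in the treated ones, and Marco is highest in the untreated Smad3fl libraries.

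Cd68 (macrosialin), the late-endosomal glycoprotein used as a general macrophage marker, was the most abundant of the 8 per length in every group. In untreated Smad2fl its deposited FPKM (fragments per kilobase and per M) was 1590 ± 72 (SD, n = 3). Stab1 followed at 462 ± 42, Marco at 208 ± 39, Msr1 at 93 ± 22, Scarb1 at 52.9 ± 8.1 and Scarf1 at 33.4 ± 3.3. Cd163 (0.0672 ± 0.04) and Olr1 (0.0373 ± 0.065) were near 0. In 96.6% of 28304 genes the deposited FPKM divides by the mean length of the annotated transcripts to within 1 base, and for Stab1, with 13 annotated transcripts of which 3 are coding, that mean is 1975 bases. Its longest coding transcript has 7999 bases. Divided by the longest coding transcript, untreated Smad2fl gave 1230 for Cd68, 124 for Marco, 114 for Stab1, 44.6 for Msr1, 32 for Scarf1 and 30.5 for Scarb1. The order of Stab1 against Marco, and of Scarb1 against Scarf1, therefore depends on the length chosen. Changes of 1 gene between groups do not.

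**Figure D2:**
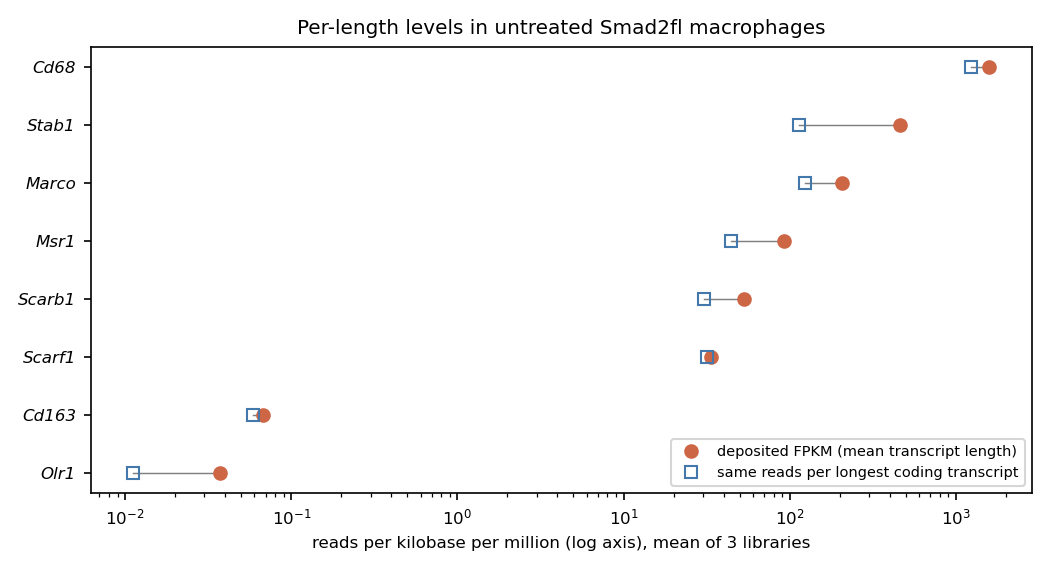
Level of each gene per kilobase and per M reads (log axis), mean of 3 untreated Smad2fl libraries, as deposited (circles) and per longest coding transcript (squares). Cd68 leads on both scales, while Stab1 moves from 462 to 114 and falls behind Marco.

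Olr1 (ENSMUSG00000030162, chr6:129485244-129507165, minus strand) encodes LOX-1, the lectin-like receptor for oxidised low-density lipoprotein. It was nearly silent without TGF-β1 and was called higher with it in all 4 genotypes. Untreated Smad2fl libraries held 3, 0 and 0 reads and treated ones 45, 68 and 72. Untreated MyS2KO libraries held 0, 3 and 0 reads and treated ones 15, 14 and 13. Every treated library of these genotypes exceeded every untreated one. Untreated Smad3fl libraries held 12, 12 and 10 reads (0.478, 0.54 and 0.47 CPM) and treated ones 130, 97 and 69 (5.89, 4.26 and 3.86 CPM). Untreated MyS3KO libraries held 0, 2 and 6 reads and treated ones 12, 33 and 58 (0.735, 1.64 and 2.47 CPM). The groups did not overlap here either.

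The ratio of treated to untreated pooled reads of Olr1 per scaled total was 61.7 in Smad2fl (95% exact interval 20.8 to 302, counting error only) and 14.1 in MyS2KO (4.5 to 71.1). It was 9.52 in Smad3fl (6.66 to 14) and 12.5 in MyS3KO (6.13 to 29.8). With 3 untreated reads in all in each Smad2-line group, the first pair of ratios is known only within wide limits. A library with no read allows up to 0.119 to 0.184 CPM (3 reads), depending on its depth. The fitted log2 changes were 5.81 ± 0.76 (SE), 3.69 ± 0.84, 3.22 ± 0.55 and 3.55 ± 0.68 in that order of genotypes, with adjusted p of 9.04e-06, 0.0108, 0.000243 and 0.000906 in edgeR's quasi-likelihood test. The call in MyS2KO was lost without untreated library 1 (3.22, adjusted p = 0.0718) or 3 (3.16, adjusted p = 0.0675).

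The response of Olr1 was not shown to differ between genotypes. The test of the difference itself gave -2.12 ± 1.5 for MyS2KO minus Smad2fl, 0.33 ± 0.82 for MyS3KO minus Smad3fl and -2.59 ± 1 for Smad3fl minus Smad2fl, with adjusted p of 1, 0.918 and 1. Of all genes, 0.00701%, 0.021% and 0% were called in these tests. Without adjustment, the p of Olr1 in edgeR was 0.179, 0.695 and 0.0177. Treated levels ran in the order Smad3fl (mean 4.67 CPM), Smad2fl (2.95), MyS3KO (1.61) and MyS2KO (0.727). Smad3fl lay above Smad2fl in every library, while Smad2fl and MyS3KO overlapped, and so did MyS3KO and MyS2KO. The genes whose group means most resembled those of Olr1 over the 8 groups were AI504432 and Gm14221, with root mean square differences of 0.328 and 0.356 on the centred log2 scale. Both lay below the SD of Olr1 between libraries of a group (0.604), so which genes lie nearest is uncertain.

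Stab1 (ENSMUSG00000042286, chr14:31139013-31168641, minus strand) encodes stabilin-1, the recycling receptor that takes up the matrix protein SPARC and apoptotic cells. It was called higher with TGF-β1 in 3 of the 4 genotypes, by 1.43 to 1.77-fold. In Smad3fl it went from 544, 645 and 702 CPM to 1050, 1160 and 1130 CPM (log2 0.83 ± 0.15, adjusted p = 0.000574). In Smad2fl it went from 946, 1080 and 893 to 1490, 1430 and 1250 CPM (0.51 ± 0.15, adjusted p = 0.0298), and in MyS3KO from 835, 877 and 937 to 1380, 1290 and 1280 CPM (0.57 ± 0.15, adjusted p = 0.0155). In these 3 genotypes no treated library overlapped an untreated one. In MyS2KO the untreated libraries spread over 1070, 827 and 1360 CPM and the treated ones over 1290, 1130 and 1450, and the change of 0.25 ± 0.15 was not called (adjusted p = 0.607). The difference in response was not called in either line (-0.27 ± 0.21, adjusted p = 1, and -0.25 ± 0.21, adjusted p = 0.757).

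In Smad3fl the Stab1 call held in every alternative, while in Smad2fl and MyS3KO it depended on single libraries. In Smad2fl the call was lost without untreated library 1 or 3 or treated library 1 or 2 (log2 0.44 to 0.46, adjusted p 0.0809 to 0.144) and without the filter on low counts (0.49, adjusted p = 0.0626). In MyS3KO it was lost without untreated library 1 or 2 or treated library 2 or 3 (0.54 to 0.56, adjusted p 0.0517 to 0.0694), or without both libraries numbered 1 (0.48, adjusted p = 0.154). The Stab1 gene overlaps Nt5dc2 on the opposite strand by 112 bases, and the strand setting of the counting is not given in the sources used here, so a few reads there could belong to either gene. Emc8 and Ttll4 had the group means most like those of Stab1 (0.0678 and 0.0757, below its within-group SD of 0.178).

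The other 5 tested members were not called after TGF-β1 in any genotype, with log2 changes from -0.65 (Msr1 in MyS3KO) to 0.05 (Scarb1 in MyS3KO). Of all 7, 2 were called in Smad2fl, 1 in MyS2KO, 2 in Smad3fl and 2 in MyS3KO, all of them higher. Over all 14261 tested genes, 11.1%, 3.41%, 12% and 10% were called, and 7.37%, 2.9%, 6.38% and 6.54% were called higher. The median log2 change of the 7 was -0.24, -0.13, -0.27 and -0.07, against 0.01, 0.01, -0.03 and 0 for all genes. In Smad2fl, Scarb1, Scarf1 and Cd68 were lower in every treated library than in every untreated one, along with the higher Olr1 and Stab1. Groups did not overlap for 5 of 7 members there, against 33.8% of all genes. In MyS2KO, Smad3fl and MyS3KO this held for 1, 3 and 3 of 7, against 18.4%, 28.4% and 24.9%. For Cd68 the 3 untreated Smad2fl libraries read 1420, 1750 and 1680 CPM and the treated ones 1190, 1270 and 1310 (log2 -0.36 ± 0.15, adjusted p = 0.143). For Scarf1 they read 87.1, 115 and 94 CPM untreated and 77, 75.3 and 66.3 treated (-0.44 ± 0.18, adjusted p = 0.12), and this became a call where only those 6 libraries were fitted (-0.41, adjusted p = 0.0472).

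In Smad3fl the library numbers were taken to pair untreated and treated libraries. Same-numbered ones correlated at 0.45, 0.34 and 0.33, against -0.092 at most for other pairs. The pairing was inferred and is not stated in the sample titles. With the replicate number as a block, Marco (-0.38, adjusted p = 0.0245) and Cd68 (-0.32, adjusted p = 0.0453) were called lower after TGF-β1, where the fit without the block gave -0.40 ± 0.27 (adjusted p = 0.385) and -0.35 ± 0.15 (adjusted p = 0.157). All genes called rose from 1714 to 3306 with the block. Marco went from 647, 1230 and 786 CPM to 539, 875 and 598 CPM, a lower value in each pair. Scarb1 in Smad3fl (-0.52 ± 0.26, adjusted p = 0.234) was called without untreated library 2 (-0.83, adjusted p = 0.0281) and without the filter on low counts (-0.53, adjusted p = 0.0407). In MyS2KO the numbers were taken to pair the libraries as well, though the lowest same-numbered correlation (0.15) lay below the highest of other pairs (0.2). No member's call changed with the block there, while all calls rose from 486 to 1032. Msr1 in MyS3KO went from 340, 178 and 188 CPM to 168, 138 and 145 CPM (-0.65 ± 0.30, adjusted p = 0.218) and was called without the filter on low counts (-0.68, adjusted p = 0.00198).

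**Figure D3:**
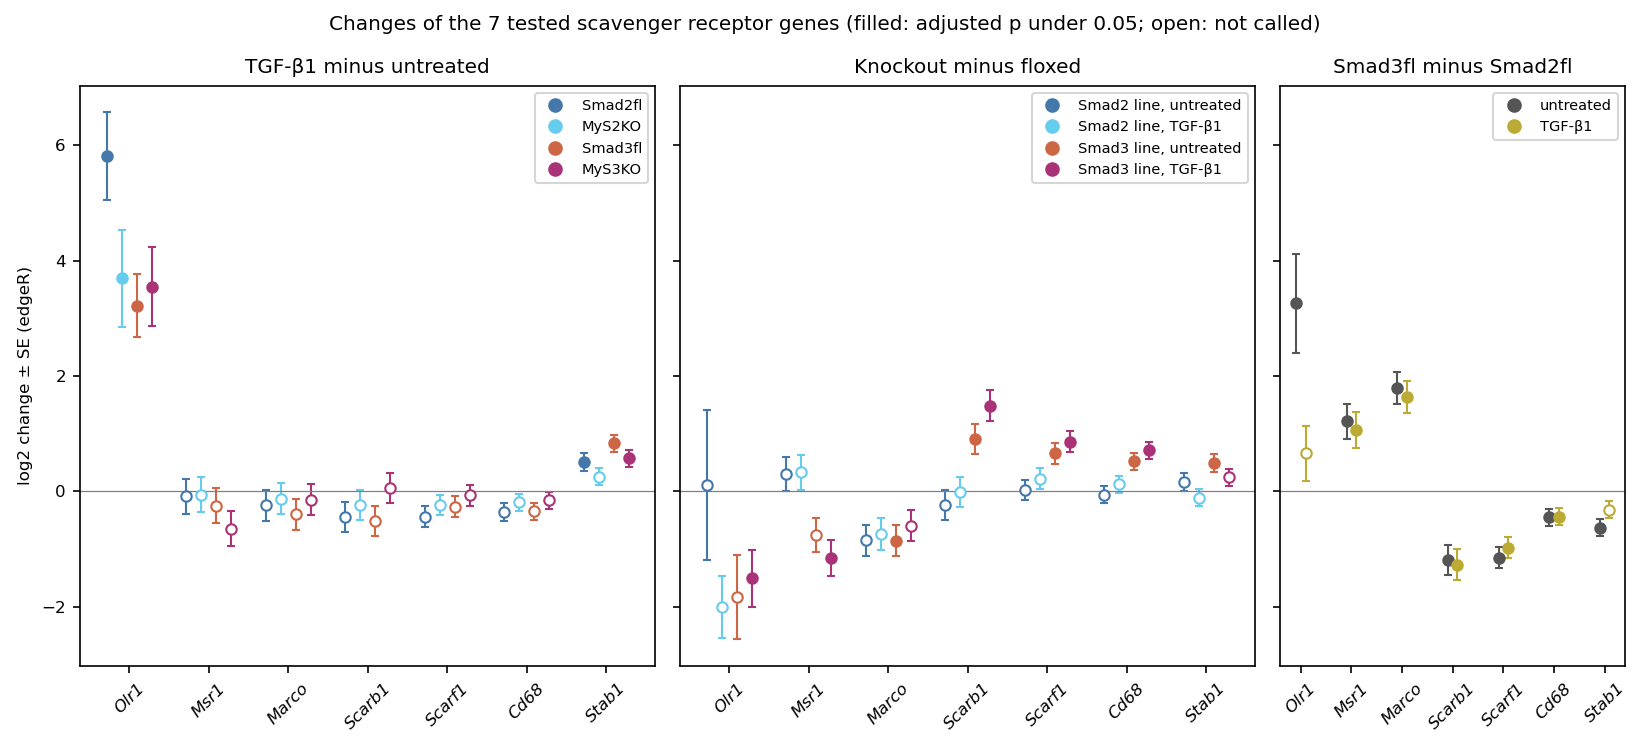
Fitted log2 change ± SE of the 7 tested genes after TGF-β1 (left), in knockout against floxed libraries (middle) and between the floxed lines (right). Filled points passed an adjusted p of 0.05. Olr1 and Stab1 are the only filled points on the left, and the Smad2-line knockout has none.

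In the Smad2 line, no member was called between the libraries labelled MyS2KO and Smad2fl by edgeR, untreated or with TGF-β1. Of all genes, 0.0701% and 0.421% were called. At an unadjusted p under 0.05 in edgeR there were 1 untreated (Marco) and 2 treated (Olr1 and Marco) of 7. Of all 14261 genes, 1254 and 1313 had such a p. DESeq2 called 0 and 1 of the 7, and 99 and 212 genes in all. Marco, the collagenous receptor of bacteria and particles, read 98.3, 167 and 161 CPM in untreated MyS2KO and 196, 260 and 313 in untreated Smad2fl. With TGF-β1 it read 96, 154 and 140 CPM against 197, 198 and 255. All 6 MyS2KO values lay below all 6 Smad2fl values. Groups did not overlap for 1 of 7 members untreated (Marco) and 2 treated (Marco and Olr1), against 15.3% and 19.4% of all genes. The log2 differences were -0.85 ± 0.27 (adjusted p = 0.323) and -0.74 ± 0.27 (adjusted p = 0.335). They were called without the filter on low counts (adjusted p = 0.000322 and 0.00403) and, with TGF-β1, where only those 6 libraries were fitted (-0.73, adjusted p = 0.0365). Treated Olr1 was lower in each MyS2KO library, at 0.247 of the Smad2fl level (95% exact interval 0.172 to 0.346, counting error only). Its adjusted p was 0.11 in edgeR's fit, 0.00358 in DESeq2, 0.00332 without the filter and 0.0118 where only those 6 libraries were fitted, and over all 11 alternatives it ran from 0.00332 to 0.434. Untreated Olr1 had 3 reads in either group. For the other 5 members the log2 differences ran from -0.23 (Scarb1, untreated) to 0.33 (Msr1, treated), with adjusted p of 0.795 or more.

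In the Smad3 line the members split by direction. Untreated MyS3KO libraries had higher Scarb1, Scarf1, Cd68 and Stab1 and lower Marco than untreated Smad3fl libraries, 5 calls of 7, against 17.7% of all genes (8.37% higher, 9.38% lower). With TGF-β1, Scarb1, Scarf1 and Cd68 were higher and Olr1 and Msr1 lower, again 5 of 7, against 28.2% of all genes (15% higher, 13.2% lower). The median change of the 7 was 0.49 untreated and 0.24 treated, against -0.03 and 0.01 over all genes. Groups did not overlap for 5 and 6 of 7 members, against 25.7% and 46.4%. In the edgeR test of whether the response to TGF-β1 differed in MyS3KO, 0 members were called, and 0 had an unadjusted p under 0.05 or were called by DESeq2. Of all 14261 genes, edgeR called 3 there, and 917 had an unadjusted p under 0.05. The treated and untreated differences are therefore not shown to be unequal. These differences all rest on the Smad3fl libraries that stood apart, in which ribosomal protein genes took 0.9 to 1.17% of reads, and on untreated Smad3fl library 3 (1.49%), against 1.61 to 2.26% in MyS3KO. The part of that share in these results was not tested.

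Scarb1 (ENSMUSG00000037936, chr5:125277087-125341094, minus strand), the high-density lipoprotein receptor that exchanges cholesterol, had the largest fitted difference among the members called higher. With TGF-β1 it read 26.5, 19.1 and 28.8 CPM in Smad3fl and 62.8, 66 and 79.2 in MyS3KO, a 2.8-fold difference (log2 1.48 ± 0.27, adjusted p = 0.00057). Untreated it read 30.4, 19.8 and 56.3 against 46.9, 78.1 and 75.3 CPM (0.91 ± 0.26, adjusted p = 0.0189). Untreated groups overlapped through Smad3fl library 3, which at 56.3 CPM exceeded MyS3KO library 1. The gene overlaps the unconfirmed transcript Gm42633, which had 4 reads at most in any library.

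Scarf1 (ENSMUSG00000038188, chr11:75513540-75526582, plus strand), an EGF-repeat receptor for acetylated lipoprotein and for dying cells coated with C1q, showed the same order at a smaller size. Treated libraries read 38.1, 34.7 and 37.8 CPM in Smad3fl and 87.6, 51.2 and 62.8 in MyS3KO (0.86 ± 0.18, adjusted p = 0.00168). Untreated ones read 39.7, 37.8 and 56.4 against 69.5, 67.8 and 73.9 CPM (0.66 ± 0.18, adjusted p = 0.0129). Cd68 (ENSMUSG00000018774, chr11:69664213-69666153, minus strand) was higher by 1.64-fold with TGF-β1, from 867, 927 and 982 to 1740, 1360 and 1460 CPM (0.71 ± 0.15, adjusted p = 0.0024). Untreated it went from 987, 1010 and 1550 to 1640, 1800 and 1640 CPM (0.52 ± 0.15, adjusted p = 0.022). For Stab1 the untreated values above gave 0.49 ± 0.15 (adjusted p = 0.0294), and the treated ones 0.24 ± 0.15 (adjusted p = 0.249).

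Marco (ENSMUSG00000026390, chr1:120474538-120505024, minus strand) was lower in untreated MyS3KO, at 540, 450 and 477 CPM against 647, 1230 and 786 (-0.86 ± 0.27, adjusted p = 0.0329). With TGF-β1 the groups overlapped, at 622, 309 and 396 against 539, 875 and 598 CPM (-0.60 ± 0.27, adjusted p = 0.103), and the difference was called without the treated MyS3KO library 1 (-0.91, adjusted p = 0.0269). Msr1 (ENSMUSG00000025044, chr8:39581685-39642673, minus strand), the macrophage scavenger receptor SR-A, which binds acetylated and oxidised lipoprotein, was lower with TGF-β1, at 168, 138 and 145 CPM against 319, 376 and 311 (-1.16 ± 0.31, adjusted p = 0.00884). The untreated values were 340, 178 and 188 against 398, 561 and 234 CPM (-0.76 ± 0.30, adjusted p = 0.0888). That difference was called without untreated MyS3KO library 1 (-1.11, adjusted p = 0.0174) or untreated Smad3fl library 3 (-1.02, adjusted p = 0.0165). Treated Olr1 was at 0.364 of the Smad3fl level (95% exact interval 0.288 to 0.457, counting error only; log2 -1.51 ± 0.50, adjusted p = 0.028). Untreated it was at 0.276 of it (0.11 to 0.608; -1.84 ± 0.73, adjusted p = 0.0862), and DESeq2 called this (-1.88, adjusted p = 0.0381).

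The treated differences of Scarb1, Scarf1, Cd68 and Msr1 were called under all 13 alternatives, with adjusted p of 0.00721, 0.013, 0.014 and 0.038 at most. The 5 untreated calls were each lost without 1 or more single libraries, and all 5 where only those 6 libraries were fitted (adjusted p 0.0857 to 0.192). Without untreated Smad3fl library 2, the log2 difference was 0.63 for Scarb1, 0.55 for Scarf1, 0.42 for Cd68, 0.51 for Stab1 and -0.55 for Marco, with adjusted p of 0.0702 to 0.231. Without untreated Smad3fl library 1 the calls of Scarb1 (0.82), Scarf1 (0.59), Cd68 (0.41) and Stab1 (0.40) were lost (adjusted p 0.0624 to 0.125). Without untreated MyS3KO library 2 those of Scarb1 (0.80), Cd68 (0.49), Stab1 (0.50) and Marco (-0.79) were lost (adjusted p 0.0671 to 0.117), and without library 3 all 5 were (adjusted p 0.0514 to 0.102). Without both Smad3fl libraries numbered 3, Scarb1 moved to 1.43, Scarf1 to 0.88, Cd68 to 0.78, Stab1 to 0.59 and Marco to -0.92, all called, and Msr1 was called as well (-1.01, adjusted p = 0.0209). The treated call of Olr1 was lost without treated library 1 or 2 of either group (-1.58 to -1.17, adjusted p 0.0622 to 0.116).

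**Figure D4:**
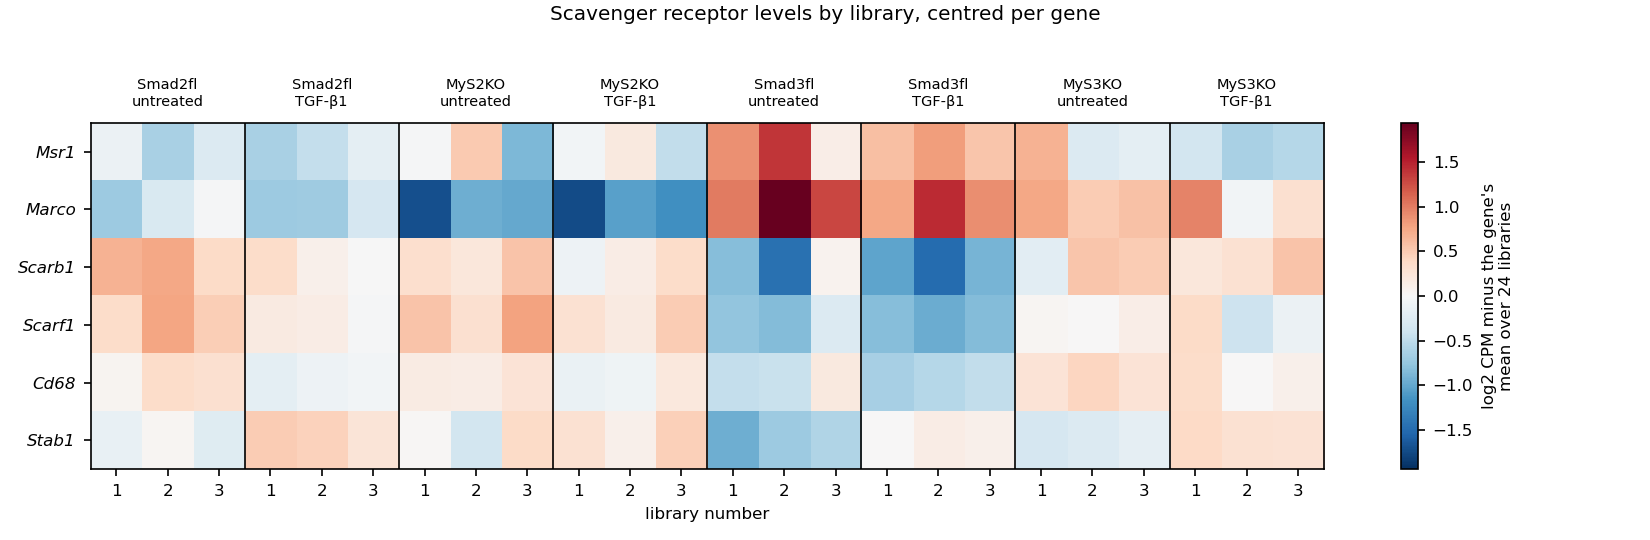
Log2 CPM of 6 genes in each library minus the gene's mean over the 24 libraries, libraries 1 to 3 side by side within a group. In Smad3fl, Msr1 and Marco lie above and Scarb1 and Scarf1 below their means, except for Scarb1 in untreated library 3 (0.07), where Msr1 is at 0.13.

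The floxed lines, neither of which carries Cre, differed from each other in the same genes. Untreated Smad3fl exceeded untreated Smad2fl in Marco (log2 1.79 ± 0.28, adjusted p = 7.49e-05) and Msr1 (1.21 ± 0.31, adjusted p = 0.00485). Olr1 held 34 against 3 reads, a ratio of 10.5 (95% exact interval 3.29 to 53.2). Smad3fl was lower in Scarb1 (-1.20 ± 0.26, adjusted p = 0.00165), Scarf1 (-1.15 ± 0.18, adjusted p = 6.97e-05), Stab1 (-0.63 ± 0.15, adjusted p = 0.00363) and Cd68 (-0.45 ± 0.15, adjusted p = 0.0285). So 7 of 7 members were called, against 33.4% of all genes (17.7% higher, 15.6% lower), and groups did not overlap for 6 of 7, against 38.3%. With TGF-β1, groups did not overlap for 7 of 7 members (50.9% of all genes), and 5 of 7 were called (25.3% of all genes, 12% higher and 13.3% lower): Msr1 (1.06) and Marco (1.63) higher, and Scarb1 (-1.27), Scarf1 (-0.98) and Cd68 (-0.44) lower. Treated Olr1 (0.66 ± 0.48, adjusted p = 0.325) and Stab1 (-0.32 ± 0.15, adjusted p = 0.13) were not called. These comparisons share the Smad3fl libraries with the knockout comparison of that line, so the mirrored signs are not independent. Whether the lines differ beyond the floxed gene, for instance in breeding, culture date or sequencing run, is not given in the labels. Other measures also differed between the lines. Untreated dendritic cell markers summed to 17.7 to 22.1 CPM in Smad2fl and 32.3 to 39.7 in Smad3fl. Most of this was Xcr1 (means 19.8 and 35.4), and the treated sums overlapped (18.4 to 31.2 and 18.9 to 24.6). Osteoclast markers summed to 16.8 to 25.5 and 25.9 to 37.1 (treated 20.4 to 27.1 and 35.2 to 44.5). Untreated Ctsk (means 14.7 and 29.6) and Dcstamp (0.801 and 1.87) were higher in Smad3fl. Acp5 was lower there (4.1 and 1.44), and the others were near 0. Smad3 itself averaged 41.4 CPM in untreated Smad2fl and 424 in untreated Smad3fl. Lyz2 averaged 11200 CPM in untreated Smad2fl and 4040 in untreated Smad3fl, and ribosomal protein genes took 2.08 to 2.26% and 0.9 to 1.49% of reads. Their part in the differences between the lines was not tested.

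Some of the calls between the floxed lines rested on single libraries. Untreated Msr1 was not called without Smad3fl library 2 (0.87, adjusted p = 0.0577), and untreated Cd68 was not called without Smad3fl library 1 or 2 or Smad2fl library 2 or 3 (-0.43 to -0.35, adjusted p 0.0739 to 0.14), or where only those 6 libraries were fitted (-0.46, adjusted p = 0.173). Untreated Olr1 did not pass the filter on low counts in that fit and has no value there. With TGF-β1, Msr1 was lost without Smad2fl library 1 or 2 or Smad3fl library 2 (0.94 to 1.04, adjusted p 0.0576 to 0.0711), and Cd68 without any 1 of the 6 libraries (-0.50 to -0.41, adjusted p 0.0525 to 0.0992) or without the filter on low counts (-0.45, adjusted p = 0.0588). Treated Stab1 was called lower where only those 6 libraries were fitted (-0.31, adjusted p = 0.0315).

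Between the knockout lines, only Marco was called. MyS3KO exceeded the libraries labelled MyS2KO by 1.78 ± 0.28 on the log2 scale untreated (adjusted p = 0.000346) and by 1.76 ± 0.28 with TGF-β1 (adjusted p = 0.000343), while 5.97% and 6.72% of all genes were called. The 6 MyS3KO values of Marco, from 309 to 622 CPM, lay above the 6 MyS2KO values, from 96 to 167. Groups did not overlap for 2 of 7 members untreated (Marco and Scarf1) and 1 treated (Marco), against 24.1% and 24% of all genes. Olr1 held 8 against 3 reads untreated, and with TGF-β1 the ratio was 2.38 (95% exact interval 1.65 to 3.5, counting error only; adjusted p = 0.224). Treated Scarf1 (-0.34 ± 0.18, adjusted p = 0.292) was called lower without the treated MyS3KO library 1 (-0.58, adjusted p = 0.0382). Marco thus had the widest spread of group levels among the abundant members: untreated Smad3fl averaged 887 CPM, treated Smad3fl 671, untreated and treated MyS3KO 489 and 442, untreated and treated Smad2fl 257 and 217, and untreated and treated MyS2KO 142 and 130. Neighbours in that order overlapped in their ranges except treated Smad2fl and untreated MyS2KO. Cacna1a and Ptprm were the genes with group means most like those of Marco, at 0.252 and 0.278, below its within-group SD of 0.373.

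Orders of the remaining members were flatter. Msr1 ran from 397 CPM in untreated Smad3fl to 150 in treated MyS3KO with overlap between all neighbours. For Scarb1, 6 groups lay between 59.4 and 81.7 CPM and the Smad3fl groups at 35.5 and 24.8. Scarf1 had its 2 lowest means in Smad3fl too (44.6 and 36.9 CPM, the others 67.2 to 100). Cd68 spanned the least, from 1700 CPM in untreated MyS3KO to 925 in treated Smad3fl, and in that order only its last neighbours, the Smad3fl groups, did not overlap. The group means most like those of Msr1 belonged to Katnbl1 and Tbc1d31 (0.0716 and 0.0823), of Scarb1 to Rps4x and Hsd17b10 (0.0599 and 0.065), and of Scarf1 to Psmb10 and Cyb5d2 (0.0439 and 0.062). The within-group SD of Msr1 (0.424), Scarb1 (0.358) and Scarf1 (0.223) exceeded these differences, so which genes lie nearest is uncertain. No such genes were sought for Cd68, whose group means spanned less than 1 on the log2 scale. Endothelial cells also express several of these receptors, and of the 7 endothelial markers only Pecam1, Cdh5 and Kdr had group means of 1 CPM or more. The 7 summed to 42 to 120 CPM in untreated Smad3fl and 76.5 to 139 in untreated MyS3KO, with Cldn5 at 0 in every library. In the same order Kdr averaged 57.5 and 75.5 CPM, Pecam1 14.7 and 15.3, and Cdh5, with the opposite sign, 9.16 and 6.56. Neutrophil markers summed to 2.77 to 19.1 and 13.7 to 23 CPM in those groups. In the Smad2 line they summed to 1.43 to 2.96 CPM in untreated Smad2fl and 6.48 to 10.5 in untreated MyS2KO. With TGF-β1 the Smad2-line sums were 1.01 to 3.13 and 5.05 to 7.33 CPM. Endothelial markers in that line summed to 105 to 132 CPM in untreated Smad2fl and 140 to 168 in untreated MyS2KO. With TGF-β1 they summed to 78 to 88.4 and 103 to 119. Untreated Kdr averaged 89.8 and 123 CPM, while Pecam1 (22.2 and 19.9) and Cdh5 (7.42 and 6.7) had the opposite sign. Treated endothelial sums overlapped in the Smad3 line (32.5 to 64.3 in Smad3fl, 48.6 to 101 in MyS3KO). The part of endothelial and neutrophil markers in the knockout differences of either line was not tested.

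Cd163 (ENSMUSG00000008845, chr6:124304656-124330527, plus strand), the receptor that clears haemoglobin bound to haptoglobin, had 108 reads in all 24 libraries together and failed the filter on low counts. Untreated Smad2fl libraries held 10, 2 and 6 reads and treated ones 0, 1 and 2. MyS2KO libraries held 4, 11 and 10 untreated and 7, 6 and 7 treated. Smad3fl libraries held 0, 4 and 0 untreated and 3, 1 and 0 treated, and MyS3KO libraries 0, 2 and 13 untreated and 2, 4 and 13 treated. Within MyS3KO the reads came mostly from the libraries numbered 3. The treated to untreated ratio in Smad2fl was 0.167 (95% exact interval 0.0315 to 0.571, counting error only), and the other 3 genotypes had intervals that include 1. MyS3KO to Smad3fl ratios were 4.4 untreated (1.4 to 18.2) and 4.97 treated (1.65 to 20.1), and the treated MyS2KO to Smad2fl ratio was 7.24 (2.15 to 38.1). These intervals leave out the spread between libraries, which in MyS3KO is as wide as 0 to 13 reads, and no difference of this receptor was tested.

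Of 17 other scavenger receptors listed by class, 11 could be tested. After TGF-β1, 3, 2, 3 and 4 of them were called higher in Smad2fl, MyS2KO, Smad3fl and MyS3KO, and 0, 0, 1 and 1 lower. Among all genes, 7.37%, 2.9%, 6.38% and 6.54% were called higher, and 11.1%, 3.41%, 12% and 10% in either direction. Cxcl16, a membrane chemokine that also binds oxidised lipoprotein, rose in all 4 (log2 1.15, 0.92, 0.85 and 1.27; untreated Smad2fl 240 ± 50 and treated 533 ± 27 CPM). So did Lrp1, the large endocytic receptor of the low-density lipoprotein receptor family, by 0.51, 0.57, 0.42 and 0.58. Scarb2, a lysosomal membrane relative of Scarb1, rose in 3 genotypes (0.62, 0.68 and 0.69) and not by the test in MyS2KO (0.29, adjusted p = 0.508). Mrc1, the mannose receptor, fell in Smad3fl (-0.50) and MyS3KO (-0.67). In the Smad3 line, untreated MyS3KO had lower Cd44, the hyaluronan receptor (92.7 ± 4.6 against 187 ± 41 CPM; -1.02 ± 0.17, adjusted p = 0.000384), lower Cxcl16 (-0.60) and higher Scarb2 (0.79). With TGF-β1, Scarb2 was higher (0.80) and Cd44 lower (-0.89) there. In the Smad2-line knockout edgeR called 0 of the 11 untreated and 0 with TGF-β1, against 0.0701% and 0.421% of all genes. At an unadjusted p under 0.05 there were 2 and 4, against 1254 and 1313 of all 14261 genes. DESeq2 called 1 and 0 of the 11, and 99 and 212 genes in all.

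Of 15 partners and regulators listed for these receptors, 13 could be tested. After TGF-β1, 2 were called higher in each genotype and 4, 1, 2 and 3 lower, against the shares of all genes given above for the other receptors. Pparg, the lipid-sensing nuclear receptor, fell in all 4 (-1.51, -1.01, -1.67 and -1.38). Il10, an anti-inflammatory cytokine, fell in Smad2fl (-1.88) and MyS3KO (-1.67), with values of -1.18 (adjusted p = 0.124) in MyS2KO and -1.08 (adjusted p = 0.0739) in Smad3fl that were not called. Maf, a transcription factor of macrophages, fell in Smad2fl (-0.50), Smad3fl (-0.68) and MyS3KO (-0.75). Hpx, which encodes the haem carrier hemopexin, rose in both knockouts (1.36 in MyS2KO, 2.19 in MyS3KO, where it reached 3.43 ± 0.64 CPM) and read -0.28 and -0.02 in the floxed groups, which were not called. The tests of that difference gave 1.64 ± 0.45 (adjusted p = 0.791) and 2.21 ± 0.45 (adjusted p = 0.139), so it was not called in either line. In the Smad3 line without TGF-β1, Hmox1 (haem oxygenase, -0.65), Maf (-0.62) and Nr1h3 (the oxysterol receptor LXRα, -0.76) were lower in MyS3KO. With TGF-β1, Hpx (2.56), Hp (haptoglobin, 1.29) and Chid1 (the stabilin-1 binding chitinase-like protein, 0.56) were higher and Maf (-0.69) and the sheddase gene Adam17 (-0.43) lower. Treated MyS2KO libraries had higher Hpx (1.94) and Pparg (0.99) than treated Smad2fl. Without TGF-β1, edgeR called 0 of the 13 in that line, against 0.0701% of all genes. Of the 13, 1 (Pparg) had an unadjusted p under 0.05, against 1254 of all 14261 genes. DESeq2 called 0 of the 13, and 99 genes in all.

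Between the floxed lines, 3 of the 11 other receptors were called higher in Smad3fl and 3 lower, untreated and with TGF-β1 alike. Among all genes, 17.7% were called higher and 15.6% lower untreated, and 12% and 13.3% with TGF-β1. Cd36, the fatty acid and oxidised lipoprotein receptor of the fold shared with Scarb1, was higher (1.30 and 1.25), as were Cd44 (1.28 and 1.29) and Lrp1 (0.45 and 0.37). Stab2, the stabilin relative of Stab1, was lower (-1.70 and -1.33), as were Scarf2, the relative of Scarf1 (-2.37 and -2.15), and Scarb2 (-0.49 and -0.43). Relatives in a class therefore did not always share a sign, since Cd36 was higher where Scarb1 was lower. Of the 13 partners and regulators, 2 were higher and 1 lower untreated, and 3 and 2 with TGF-β1. Between the knockout lines, 2 and 0 of the 11 receptors were called higher and lower in MyS3KO untreated and 3 and 2 with TGF-β1. Among all genes, 5.97% and 6.72% were called there in either direction. Colec12, a collagenous relative of Msr1 and Marco, was higher in both states (1.47 and 1.28), which is the sign of Marco there. Of the partners, Pparg was lower in both (-0.97 and -1.34), and no other was called. In the tests of a difference in response, edgeR and DESeq2 called 0 genes of either list, and only Hp and Hpx had an unadjusted p under 0.05, in both knockout lines. Of all 14261 genes, edgeR called 1 in the Smad2 line, 3 in the Smad3 line and 0 between the floxed lines. At an unadjusted p under 0.05 there were 489, 917 and 464.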

How the data were processed

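By the protocols in the labels, libraries came from a NEBNext Ultra kit and were read on a NovaSeq as 150-base pairs. The submitters' processing notes name TopHat2 2.0.9, HTSeq 0.6.1, Cufflinks 2.1.1, mm10 and GRCm38.p6. No source used here gives their roles, the counting mode or strandedness. The authors deposited raw counts and FPKM per gene in a table of the series. The counts were fitted with edgeR 4.0.16 (R 4.3.3): TMM, filterByExpr, all 24 libraries, 1 mean per group, quasi-likelihood tests, and Benjamini-Hochberg adjustment over 14261 genes, with calls at an adjusted p under 0.05. The fit was tested on simulated data. The deposited FPKM served only for levels between genes. Members and lists were chosen with earlier results of these data known. All 8 members are named. Listed genes are named where called with an absolute log2 change of at least 1 in 2 TGF-β1 responses or an untreated knockout, or where their role touches a member, and the remaining called ones were named after their values were seen. The values of 1 listed gene are not reported here. The likest 2 genes of at least 1 CPM were sought for members spanning at least 1. Library numbers were taken to pair samples where same-numbered deviations correlated above 0.1 in every pair. This held in the MyS2KO response (0.15, 0.22 and 0.41, other pairs up to 0.2) and in Smad3fl (0.45, 0.34 and 0.33, other pairs up to -0.092). Alternatives were DESeq2 1.42.0, its size factors, no filter, only the compared groups, a replicate block and left-out libraries. Promoters came from RefSeq and transcript lengths from GENCODE.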

Additional observations from a re-analysis of the deposited data

How the results depend on the processing

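Of 1368 refitted changes of members, 1279 stayed on their side of the threshold, 60 lost and 29 gained a call, and 0 called values reversed, while some small uncalled values changed sign. Counts of all called genes stayed within 1.5 times in 115 of 196 refits. With DESeq2 the Smad2-line knockout counts were 99 untreated and 212 treated (10 and 60 in edgeR), the Smad2 and Smad3 interactions 5 and 7 (1 and 3), and the difference of floxed responses 10 (0, with 464 genes at an unadjusted p under 0.05). With its size factors in edgeR the Smad3 interaction was 1. Without the filter these were 161, 313, 13, 161 and 22, and the treated knockout lines gave 1475 (958). With only the groups compared, Smad3fl gave 1004 responses (1714) and MyS3KO 893 (1428), the Smad2-line knockout 0 and 271, the untreated Smad3-line knockout 256 (2531), both interactions 0, untreated floxed lines 2209 (4762) and untreated knockout lines 391 (852). In that setting Olr1 did not pass the low-count filter in any comparison of untreated groups and has no value there. With the replicate block, responses were 3237 in Smad2fl (1584), 1032 in MyS2KO (486), 3306 in Smad3fl and 2749 in MyS3KO, interactions 2 and 6, the difference of floxed responses 13, the Smad2-line knockout 3 and 0 and the untreated Smad3-line knockout 1599. Library numbers met the rule for pairing only in the MyS2KO and Smad3fl responses. In the Smad2fl response same-numbered libraries correlated at 0.047, 0.13 and 0.16, against 0.038 at most for other pairs. In the MyS3KO response they correlated at 0.41, 0.044 and 0.29, against 0.29. Missing the rule does not show that samples were unpaired. In comparisons that missed it, the block added calls for Scarb1 (-0.45), Scarf1 (-0.43) and Cd68 (-0.36) in Smad2fl and Msr1 in MyS3KO (-0.59). It dropped untreated Smad3-line Marco (-0.81), Cd68 (0.55) and Stab1 (0.49) and treated Olr1 (-1.60). Without both Smad3fl libraries numbered 3, the Smad3fl response gave 978 and the difference of floxed responses 1. Without both MyS3KO libraries numbered 1, the Smad3 interaction gave 0 and treated knockout lines 1903. The cause of these shifts was not tested. Leaving out 1 library at a time gave 1057 to 1569 responses in Smad2fl, 316 to 451 in MyS2KO, 1136 to 1993 in Smad3fl and 914 to 1557 in MyS3KO. Knockout counts ran from 2 to 12 and 0 to 57 in the Smad2 line and 1367 to 3577 and 2219 to 3318 in the Smad3 line, interactions from 0 to 1 and 0 to 6, floxed lines from 2744 to 5970 and 2092 to 3087, their difference in response from 0 to 2, and knockout lines from 382 to 948 and 439 to 1525. Depth limits Olr1 without TGF-β1 and Cd163, where single reads set the values.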
